A study of Homo sapiens with 12 samples.

Results

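The comparison described here set LNCaP-Abl cells expressing 1 of 3 cancer-associated SPOP mutants against the same cells carrying the control vector. LNCaP-Abl is an established human prostate cancer line derived from LNCaP and kept without androgen. The mutant side held 6 arrays, 2 each for SPOP F102C, SPOP F133V and SPOP F133L, each replacing a phenylalanine of the substrate-binding domain, and the 3 group means were weighted equally. The control side held the 3 arrays titled CONTROL VECTOR, so the comparison set 9 of the 12 arrays against each other. The other 3, with wild-type SPOP, shared the normalization, the filter and the estimate of spread and are given as a reference. All groups grew in RPMI medium with 10% charcoal-stripped serum, which is depleted of steroid hormones, and all were treated with doxycycline to switch on the construct, control vector included. Arrays are described as biological replicates, but the sources used here do not say whether the transfected cells were 1 clone or a pool, or whether their own SPOP was reduced. Of 47323 probes on the Illumina bead array, 23133 were detected at p under 0.05 on at least 2 arrays, and they measured 12227 named genes, all of which enter the comparison.

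SPOP is a BTB-domain adaptor that recruits proteins to the CUL3 ubiquitin ligase, which marks them for degradation by the proteasome. Its MATH domain holds the groove that binds substrates, and the recurrent prostate cancer mutations change residues of that groove. Known substrates include the androgen receptor, its coactivators, BET proteins and other chromatin regulators. The array reads RNA, so it measures transcripts downstream of such proteins and not the proteins themselves.

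Arrays within a group were close to each other, at Pearson correlations of 0.990 to 0.994 across genes within a group, against 0.983 to 0.990 for the 18 control and mutant pairs. Mutant arrays were dimmer. Between 17485 and 19543 probes were detected on them, against 19272 to 19677 on control arrays, the fewest on SPOP F133V array 1. The cells kept a luminal profile, with 18 of 19 luminal prostate markers that have a probe detected on all 12 arrays. Markers of other cells were mostly but not all undetected. KRT5 and KRT14 of basal cells, CHGA and SYP of neuroendocrine cells, COL1A1 and COL3A1 of fibroblasts and CD3E of T cells were each detected on 0 arrays, while ITGA6 and VIM of the basal list, ENO2, ACTA2, CD68 and HLA-DRA were detected on all 12 and CD8A on 11.

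The SPOP transcript did not separate the groups. On the log2 scale used throughout, in which 1 unit is a 2-fold difference, SPOP was at 10.23, 10.15 and 10.17 on the 3 control arrays and ran from 9.90 to 10.27 on the 6 mutant arrays, with a median of 10.02. The groups overlapped, and the difference was -0.14 ± 0.08 (mutants minus control vector, ± SE; limma, adjusted p = 0.346). The gene's other probe was detected on a single array, 1 of 12. Neither probe could be placed relative to the constructs, so these values check neither the labels nor the induction.

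Across the genome, 1494 of 12227 genes (12.2%) changed at an adjusted p under 0.05, of which 684 rose (5.59%) and 810 fell (6.62%). Most changes were small, with a median size of 0.44 on the log2 scale, and 89 genes (0.728%) changed over 2-fold, 42 upward (0.344%) and 47 downward (0.384%). The median over all genes was -0.01, with quartiles of -0.15 and 0.13. On the arrays themselves, 1891 genes (15.5%) had no overlap between the 6 mutant and 3 control values, 904 with every mutant array higher (7.39%) and 987 lower (8.07%), and 1237 genes (10.1%) both passed the test and did not overlap. The number of detected probes moved with the groups, and with it as a covariate 107 genes passed, 54 of them higher. Its part in the counts was not tested. Leaving out control vector array 1, 2 or 3 gave 943, 886 and 870 genes, and fitting the 9 arrays alone gave 1132. The balance of directions rests on the scaling: 45.8% of the changed genes were higher here, against 2.25% of 6935 with equal array medians of all probes, which put the median of all genes at -0.37, and 75.8% of 3031 with medians equalised over probes detected on every array, which put it at 0.11. Sizes rest on the background correction: the deposited processed values gave 1.73 for TSPY2 and 0.46 for KLK3, against 4.00 and 1.94 here, with both still past the test.

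**Figure D1:**
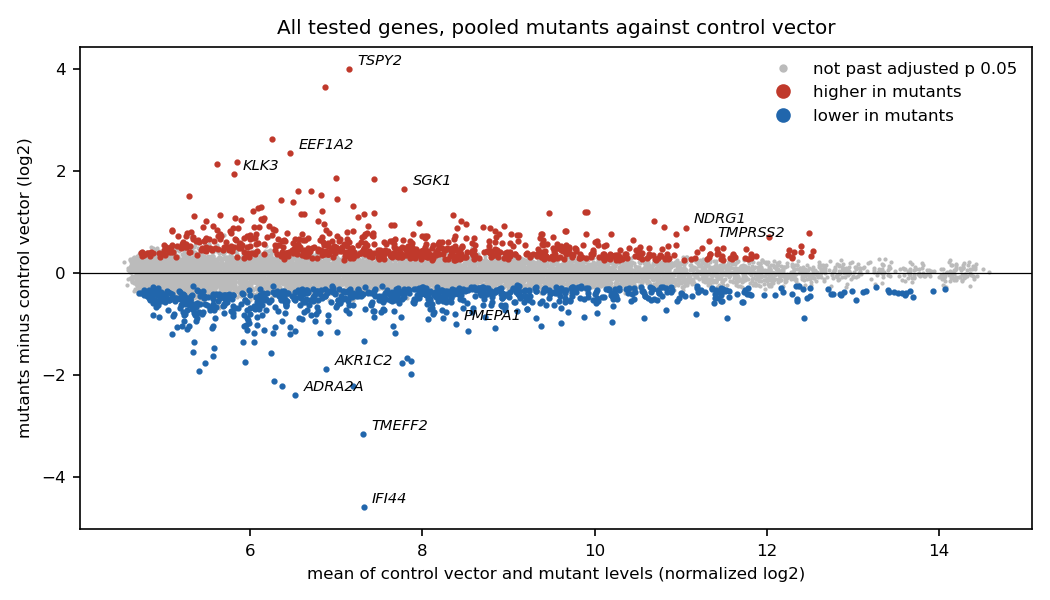
Each point is 1 of the 12227 tested genes, placed by its mean level in the 2 sets of arrays (x axis, normalized log2) and by its difference, mutants minus control vector (y axis, log2). Red points rose (684) and blue points fell (810) at an adjusted p under 0.05; TSPY2 and IFI44 lie farthest from 0.

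Most of the measured genes that androgen is known to induce were higher in the mutants. The androgen receptor is a steroid-activated transcription factor that drives secretory genes of the luminal prostate, and KLK3, which encodes prostate-specific antigen, is its best known target. Of 29 measured androgen-induced genes 19 rose and 2 fell, and the list's median was 0.50, beside -0.01 for all genes. The shares over all genes were 5.59% and 6.62%. The summed linear level of the list was 33024 to 33858 on control arrays and 39712 to 43326 on mutant arrays. In bulk RNA, more cells expressing a gene and more RNA per cell cannot be told apart. With the detected-probe covariate 6 rose and 1 fell, at a median of 0.49. With arrays scaled to equal medians of all probes 7 rose and 6 fell, at a median of 0.07, where that of all genes was -0.37.

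KLK3 was at 4.68, 4.85 and 5.02 on the control arrays, where it was detected on 1 of 3, and at 6.53 to 6.95 (median 6.80) on the mutant arrays, where it was detected on all 6. The 2 groups were separated by over 1 log2 unit, and the rise was 1.94 ± 0.10 (adjusted p = 3.34e-07). SGK1, the serum and glucocorticoid-regulated kinase, lay at 6.85, 7.05 and 7.01 in controls and 8.02 to 9.05 (median 8.73) in mutants. It rose by 1.64 ± 0.08 (adjusted p = 2.78e-07), and its other 2 probes gave 1.56 and 1.50.

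PGC and SLC26A3, from the same list, were also among the 15 largest rises of the comparison. SLC26A3, an exchanger of chloride for bicarbonate, was at 6.28, 6.20 and 6.37 on control arrays and 7.30 to 8.12 (median 7.79) on mutant arrays, a rise of 1.45 ± 0.09 (adjusted p = 1.17e-06). PGC, which encodes the aspartic protease precursor pepsinogen C, was at 5.67, 6.20 and 5.84 and 7.0 to 7.95 (median 7.60), a rise of 1.60 ± 0.14 (adjusted p = 2.53e-05). For both genes every mutant array lay above every control array, which the rule for the largest rises required. The 2 SPOP F102C arrays were the lowest of the 6.

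Smaller rises were found in other receptor targets. TMPRSS2, the serine protease whose promoter is fused to ERG in many prostate tumours, was at 11.01, 11.12 and 10.89 and 11.49 to 11.75 (median 11.64), a rise of 0.63 ± 0.09 (adjusted p = 0.000764). NDRG1, a gene of differentiation and hypoxia, rose by 0.89 ± 0.08 (adjusted p = 2.85e-05). KLK2, the neighbour of KLK3 in the kallikrein cluster, rose by 0.52 ± 0.11 (adjusted p = 0.00885) with groups that overlapped, from 6.19, 6.56 and 6.08 in controls to 6.41 to 7.03 (median 6.90) in mutants. FKBP5, a co-chaperone of steroid receptors, moved from 10.52, 10.48 and 10.50 to 10.59 to 11.09 (median 10.87), a rise of 0.36 ± 0.08 (adjusted p = 0.0127) that became -0.11 with equal array medians. The KLK2 call was lost without control vector array 3 (adjusted p = 0.0505) and the FKBP5 call without control vector array 2 (adjusted p = 0.0529).

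PMEPA1 and ELL2, the 2 genes of the list that fell, are named after their values were seen. PMEPA1, an androgen-induced inhibitor of TGF-β signalling, was at 8.89, 8.78 and 8.99 on control arrays and 7.75 to 8.02 (median 7.94) on mutant arrays, below control on every one, and fell by 0.99 ± 0.09 (adjusted p = 3.13e-05). ELL2, a transcription elongation factor, fell by 0.54 ± 0.10 (adjusted p = 0.00411).

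**Figure D2:**
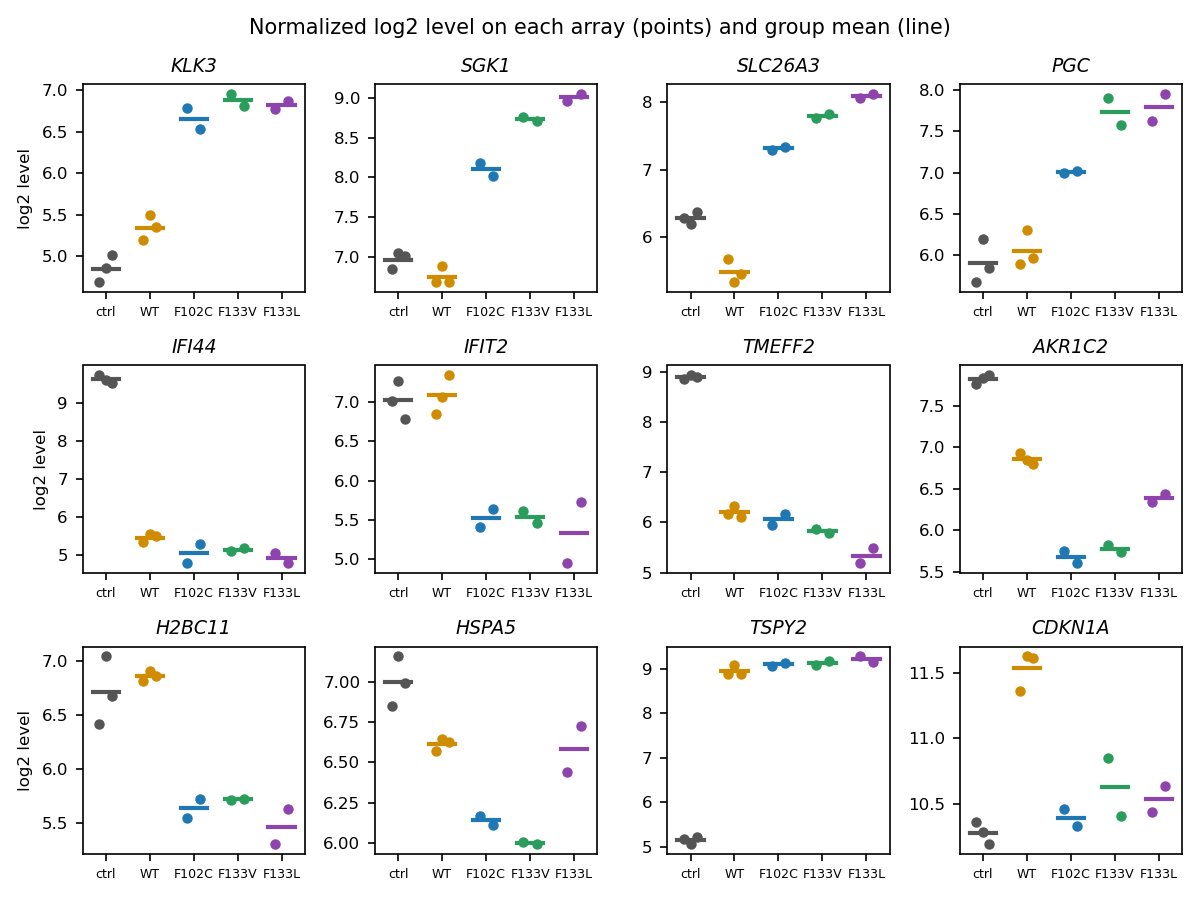
Normalized log2 levels (y axis, separate scale per panel) of 12 genes on each of the 12 arrays, by group (x axis; ctrl, control vector; WT, wild-type SPOP); points are arrays and lines are group means. SGK1, SLC26A3, PGC, IFIT2 and H2BC11 are displaced in all 3 mutants, while CDKN1A is high with wild-type SPOP.

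The region upstream of KLK3 is shown because it is the classic androgen-responsive promoter. It is the 200 bases before the RefSeq start site of the gene on chromosome 19 (GRCh38.p14, chr19:50854715-50854914, + strand), with the letters AGAACA, a core of the androgen response element, in capitals.
KLK3: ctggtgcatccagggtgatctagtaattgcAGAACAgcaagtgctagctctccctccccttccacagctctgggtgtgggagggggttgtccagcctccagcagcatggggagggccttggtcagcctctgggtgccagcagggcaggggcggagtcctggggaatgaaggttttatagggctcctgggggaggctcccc
The core lies 170 to 165 bases before the start. Searched on both strands over the same length, AGAACA was found upstream of 2 of the 16 genes that rose and have a RefSeq promoter, against 9.78% of 35116 promoters and 8.58% of those of tested genes. Receptor binding was not measured here.

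Genes that androgen represses went in both directions. Of 17 measured, 5 rose and 3 fell, a list median of -0.02, beside 5.59% of all genes that rose and 6.62% that fell. SERPINI1, the serine protease inhibitor neuroserpin, was at 6.53, 6.49 and 6.55 in controls and 8.19 to 8.57 (median 8.35) in mutants and rose by 1.84 ± 0.08 (adjusted p = 6.68e-08), with a second probe at 1.85. FGFR3, a fibroblast growth factor receptor, rose by 1.30 ± 0.12 (adjusted p = 3.58e-05), although its other probe, detected on all 12 arrays, gave -0.12. Of the steroid-glucuronidating enzymes on the list, UGT2B28 rose by 0.92 ± 0.10 (adjusted p = 0.00014) and UGT2B15 fell by 0.48 ± 0.09 (adjusted p = 0.00708). These enzymes are close in sequence, so probes may read more than 1 of them.

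Enzymes that make and inactivate steroids split 4 up and 4 down among 19 measured, beside 5.59% of all genes that rose and 6.62% that fell. AKR1C2, which reduces dihydrotestosterone to a weaker androgen, was at 7.76, 7.84 and 7.87 on control arrays and 5.60 to 6.44 (median 5.78) on mutant arrays. It fell by 1.88 ± 0.08 (adjusted p = 4.69e-08), and the 2 SPOP F133L arrays were the highest of the 6. Its relative AKR1C3, which makes testosterone, was at 5.68 ± 0.18 in controls, where it was detected on 3 of 3 arrays, and 4.63 ± 0.19 in mutants (mean ± SD), where it was detected on 0 of 6. It was at least 1.57-fold lower (adjusted p = 0.00294). For a gene not detected in a group, such a bound sets the brighter mean against the lowest detected signal of each dim array, or the probe's own where that is higher. Such bounds hold for the background correction used here, and on the deposited processed values AKR1C3 differed by -0.21. SULT2B1, which sulfates cholesterol and other hydroxysteroids, rose by 1.62 ± 0.09 (adjusted p = 8.41e-07), from 5.77, 5.86 and 5.62 to 7.13 to 7.58 (median 7.40), with 1 other probe at 1.40 and another, detected on 5 arrays, at -0.41. In the group of the receptor's coactivators and pioneer factors 2 of 12 rose and 0 fell, namely NCOA1 at 0.42 ± 0.08 (adjusted p = 0.00603; its 2 dimmer probes gave -0.07 and 0.00) and the prostate homeobox factor HOXB13 at 0.53 ± 0.12 (adjusted p = 0.0136), a call lost without control vector array 2 (adjusted p = 0.0735). The androgen receptor transcript itself was not analysed here.

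Interferon-stimulated genes were lower in part. These genes are switched on by the STAT and IRF factors after interferon or viral RNA is sensed, and IFI44 and the IFIT family are among the most responsive. Of 32 measured 9 fell and 2 rose, a list median of -0.05, so the list as a whole lay near all genes. With equal medians of detected probes its median was 0.05, where that of all genes was 0.11. Over all genes 6.62% fell and 5.59% rose. The list's summed linear level was 6556 to 6892 on control arrays and 5766 to 6251 on mutant arrays. Bright genes weigh most in such a sum, and IFI44, which fell from a bright level toward a floor, is a large part of this drop. IFI44 fell with wild-type SPOP as well, so the sum does not describe the list as a whole. With the detected-probe covariate 2 fell.

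IFI44 showed the largest change of any gene past the test, from 9.72, 9.59 and 9.52 on control arrays to 4.78 to 5.28 (median 5.07) on mutant arrays. It fell by 4.58 ± 0.11, a 23.9-fold difference (adjusted p = 2.77e-10), toward a floor, since the probe was detected on 3 of 6 mutant arrays. The size rests on the background correction, and the authors' deposited processed values gave -2.11. The level with wild-type SPOP was low as well, at 5.33, 5.55 and 5.49.

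Other members were lower with the mutants than with either the control vector or wild-type SPOP. IFIT2, an RNA-binding effector, was at 7.02, 7.27 and 6.79 on control arrays and 4.94 to 5.72 (median 5.54) on mutant arrays, and fell by 1.56 ± 0.17 (adjusted p = 0.000152), beside 6.85, 7.07 and 7.35 with wild-type SPOP. IFIT1, which binds viral RNA caps, went from 6.50, 6.50 and 6.55 to 4.93 to 5.89 (median 5.45), and fell by 1.11 ± 0.17 (adjusted p = 0.00177), beside 6.42, 6.83 and 6.53. OASL, an oligoadenylate synthetase-like protein, was detected on 3 of 3 control and 0 of 6 mutant arrays and was at least 1.58-fold lower (adjusted p = 0.000123), with means of 5.69 ± 0.30 and 4.50 ± 0.19. It was detected on 3 of 3 wild-type SPOP arrays. Mutants minus wild-type SPOP was -1.63 ± 0.17 for IFIT2 (adjusted p = 0.000195) and -1.19 ± 0.17 for IFIT1 (adjusted p = 0.00144). No mutant array reached the lowest control or wild-type SPOP array for these genes. The members that rose were small changes, and both are named after their values were seen. IRF9, the DNA-binding subunit of the interferon-activated complex, rose by 0.58 ± 0.14 (adjusted p = 0.0236), and TAP1, a peptide transporter of antigen presentation, by 0.40 ± 0.08 (adjusted p = 0.00995). The IRF9 call was lost without control vector array 3 (adjusted p = 0.118) and without SPOP F102C array 1.

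The region upstream of IFIT1 is shown because its response elements stand close to the start (chromosome 10, GRCh38.p14, chr10:89392423-89392622, + strand, 200 bases before the RefSeq start). Capitals mark matches to GAAA, any 2 bases and GAAA, the core of the interferon-stimulated response element, here read on the opposite strand.
IFIT1: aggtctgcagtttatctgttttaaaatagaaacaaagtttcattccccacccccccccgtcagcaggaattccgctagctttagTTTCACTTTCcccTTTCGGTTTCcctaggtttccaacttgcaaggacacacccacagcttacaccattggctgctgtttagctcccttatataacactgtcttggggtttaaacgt
The nearer of the 2 matches lies 103 to 94 bases before the start. All 7 genes of the list that fell and have a RefSeq promoter held the core on either strand, but so did 20 of the 27 listed genes with a promoter. The core was in 2.40% of all promoters and 2.62% of those of tested genes.

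Replication-dependent histone genes were lower in part. They encode the core and linker histones made in S phase to package new DNA, from clusters on chromosomes 6 and 1, and their transcripts normally lack poly(A) tails, which labelling primed on the tail reads poorly. Of 30 measured 15 fell and 0 rose, a list median of -0.35, beside 6.62% of all genes that fell. H2BC11, an H2B gene, was at 6.41, 7.04 and 6.67 on control arrays and 5.30 to 5.72 (median 5.67) on mutant arrays, and fell by 1.11 ± 0.13 (adjusted p = 0.000216). H3C7, an H3 gene, went from 7.37, 7.60 and 7.66 to 6.39 to 7.16 (median 6.81) and fell by 0.78 ± 0.09 (adjusted p = 0.000151). H2BC21 fell by 0.59 ± 0.08 (adjusted p = 0.000457) and H2AC6 fell by 0.55 ± 0.08 (adjusted p = 0.000862). For all 4 the groups did not overlap. The list's summed linear level was 33805 to 40929 on control arrays and 28886 to 33489 on mutant arrays. Between 13 and 15 members fell in the fits without 1 array, but 0 with the detected-probe covariate, at a median of -0.40. Histone copies are close in sequence, so which copy a probe reads is uncertain.

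The rest of the cell cycle machinery moved little. Of 45 G1/S and DNA replication genes 4 fell and 0 rose, a list median of -0.06. They were DTL at -0.58 ± 0.11, PRIM1, a primase subunit, at -0.47 ± 0.10, and the replication factors MCM4 at -0.44 ± 0.08 and MCM10 at -0.37 ± 0.08 (adjusted p from 0.00485 to 0.0122). The MCM10 and PRIM1 calls were lost without control vector array 2 (adjusted p = 0.0603 and 0.0645). Second probes gave -0.16 for MCM4, -0.22 for MCM10 and -0.47 for PRIM1. Of 39 G2/M and mitosis genes 3 fell and 0 rose, a list median of -0.02. These were the hyaluronan-binding spindle protein HMMR at -0.45 ± 0.09 (adjusted p = 0.0062), the spindle protein ASPM at -0.42 ± 0.09 (adjusted p = 0.0111) and the topoisomerase TOP2A at -0.30 ± 0.09 (adjusted p = 0.0475), of which TOP2A lost its call in 11 of 12 fits without 1 array and ASPM without control vector array 1 (adjusted p = 0.058). Both shares of genes falling are near the 6.62% of all genes. With wild-type SPOP, against the same control arrays, 12 of the G1/S genes fell and 0 rose, at a median of -0.32. Of the G2/M genes 0 fell and 0 rose with wild-type SPOP.

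Among 28 genes of double-strand break repair 5 fell and 0 rose, a list median of -0.14, beside 6.62% of all genes that fell. Altered repair of such breaks is a known feature of SPOP mutation, and its link to these levels was not tested. With wild-type SPOP, against the same control arrays, 4 of the list fell and 0 rose, at a median of -0.20. Set directly against wild-type SPOP, 2 of the list were higher and 3 lower in the mutants. BARD1, the partner of BRCA1, was at 9.75, 10.04 and 9.73 on control arrays and 9.05 to 9.36 (median 9.23) on mutant arrays, and fell by 0.63 ± 0.10 (adjusted p = 0.00184). XRCC2, a gene of homologous recombination, fell by 0.49 ± 0.11 (adjusted p = 0.0165), RIF1, which shields breaks from resection, fell by 0.42 ± 0.08 (adjusted p = 0.0066) and NBN, of the MRN break sensor, fell by 0.33 ± 0.07 (adjusted p = 0.0115). The XRCC2 and NBN calls were lost without control vector array 3 (adjusted p = 0.0829 and 0.0504), and with the detected-probe covariate 0 of the list passed.

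Targets of p53 were lower where they passed the test. Of 27 measured 5 fell and 0 rose, a list median of -0.12, beside 6.62% of all genes that fell, and with the detected-probe covariate 0 passed. PLK2, a stress-induced kinase, fell by 0.77 ± 0.11 (adjusted p = 0.00114) and was detected on 3 of 6 mutant arrays. SPATA18, a mitochondrial quality factor, fell by 0.61 ± 0.12 (adjusted p = 0.00796), the RNA-binding zinc finger gene ZMAT3 fell by 0.46 ± 0.10 (adjusted p = 0.0106) and the stress protein gene TP53INP1 fell by 0.36 ± 0.08 (adjusted p = 0.0111; 0.0521 without control vector array 3). CDKN1A, the cyclin-dependent kinase inhibitor p21, was at 10.36, 10.29 and 10.19 in controls and 10.33 to 10.85 (median 10.45) in mutants. Its difference of 0.24 ± 0.11 did not pass (adjusted p = 0.19) and became -0.24 with equal array medians, and a dim second probe gave -0.27.

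Chaperones of the endoplasmic reticulum were lower in part. They fold secreted proteins and are induced through ATF6 and XBP1 when unfolded protein accumulates. Of 25 genes of the list 8 fell and 0 rose, a list median of -0.11, beside 6.62% of all genes that fell. The list's summed linear level was 51317 to 52660 on control arrays and 43550 to 47099 on mutant arrays. HSPA5, the chaperone BiP, was at 6.85, 7.16 and 6.99 on control arrays and 5.99 to 6.73 (median 6.14) on mutant arrays, and fell by 0.76 ± 0.09 (adjusted p = 0.000299). HSP90B1, the chaperone GRP94, went from 13.39, 13.31 and 13.22 to 12.53 to 12.89 (median 12.81), and fell by 0.53 ± 0.09 (adjusted p = 0.00411). HYOU1, a large chaperone of the compartment, fell by 0.56 ± 0.11 (adjusted p = 0.00649) and MANF, a secreted stress protein, fell by 0.44 ± 0.08 (adjusted p = 0.00539). A second probe of HYOU1 gave -0.37. The groups did not overlap for any of the 4 genes. With the detected-probe covariate 0 of the list passed, at a median of -0.15. With wild-type SPOP, against the same control arrays, 7 of the 25 fell and 0 rose, at a median of -0.23. Set directly against wild-type SPOP, 2 were lower and 0 higher in the mutants.

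The regions upstream of HSPA5 and HSP90B1 are shown because both hold the ER stress response element, CCAAT, any 9 bases and CCACG, marked in capitals on either strand. They are the 200 bases before the RefSeq start of HSPA5 (chromosome 9, GRCh38.p14, chr9:125241344-125241543, − strand) and of HSP90B1 (chromosome 12, chr12:103930210-103930409, + strand).
HSPA5: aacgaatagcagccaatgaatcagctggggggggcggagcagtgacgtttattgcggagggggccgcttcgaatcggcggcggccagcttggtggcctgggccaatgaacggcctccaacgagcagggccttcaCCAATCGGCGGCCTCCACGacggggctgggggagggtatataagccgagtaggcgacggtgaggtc
HSP90B1: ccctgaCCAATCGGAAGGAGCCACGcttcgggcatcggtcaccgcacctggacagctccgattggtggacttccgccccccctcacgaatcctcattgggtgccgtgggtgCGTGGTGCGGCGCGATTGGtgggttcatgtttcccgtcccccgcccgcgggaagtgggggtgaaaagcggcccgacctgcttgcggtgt
The match lies 66 to 48 bases before the start of HSPA5, and 194 to 176 and 89 to 71 bases before that of HSP90B1. The element was upstream of 2 of the 8 genes that fell and of 6 of the 23 listed genes with a promoter, against 0.0626% of all promoters and 0.112% of those of tested genes.

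Related stress programmes fell in single genes, and with the detected-probe covariate 0 of the ATF4 and heat shock lists passed and 1 of the NRF2 list. Beside the counts below, 6.62% of all genes fell and 5.59% rose. Of 35 ATF4 targets 4 fell and 0 rose, a list median of -0.13, led by SLC7A11, the cystine transporter, which went from 8.12, 8.07 and 8.34 on control arrays to 6.67 to 7.61 (median 7.18) on mutant arrays and fell by 1.03 ± 0.12 (adjusted p = 0.000212). The leucine transporter SLC7A5 fell by 0.38 ± 0.08, the asparagine synthetase ASNS fell by 0.33 ± 0.08 and the secreted glycoprotein STC2 fell by 0.26 ± 0.07 (adjusted p from 0.0083 to 0.0332), with calls lost in 3 of 12 fits without 1 array for ASNS and in 7 for STC2. Of 19 NRF2 targets, which answer oxidative stress, 5 fell and 0 rose, a list median of -0.12, and they include SLC7A11, AKR1C2, AKR1C3 and ME1, the malic enzyme, at -0.45 ± 0.09 (adjusted p = 0.00752). Of 17 heat shock genes 3 fell and 0 rose: the co-chaperone CHORDC1 at -0.85 ± 0.12 (adjusted p = 0.000782), HSPA4L at -0.47 ± 0.08 (adjusted p = 0.00328) and HSPH1 at -0.36 ± 0.11 (adjusted p = 0.0437; call lost in 8 of 12 fits without 1 array). A dim second probe of CHORDC1 gave -0.23. With wild-type SPOP, against the same control arrays, 5 of the ATF4 targets fell and 1 rose, at a median of -0.23.

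Among 28 NF-kB target and immediate early genes 4 rose and 2 fell, a list median of -0.02, and with the covariate 0 passed. The shares over all genes were 5.59% rising and 6.62% falling. DUSP4, a phosphatase that turns off MAP kinases, rose by 0.74 ± 0.10 (adjusted p = 0.000697) and NFKBIA, the inhibitor of NF-kB, by 0.38 ± 0.10 (adjusted p = 0.0272; call lost in 4 of 12 fits without 1 array). The zinc finger factor KLF6 fell by 0.52 ± 0.08 (adjusted p = 0.00177). CCL20, a chemokine, was detected on 3 of 3 control and 0 of 6 mutant arrays, at 5.52 ± 0.17 and 4.68 ± 0.09, and was at least 1.40-fold lower (adjusted p = 0.000671).

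Genes normally restricted to the testis held the largest rises. TSPY2, of the Y-linked TSPY multicopy family, was at 5.17, 5.05 and 5.22 on control arrays and 9.07 to 9.29 (median 9.14) on mutant arrays, a rise of 4.00 ± 0.08 on the log2 scale (adjusted p = 6.28e-11). TSPY8 went from 5.08, 4.93 and 5.12 to 8.50 to 8.87 (median 8.71) and rose by 3.65 ± 0.08 (adjusted p = 6.28e-11), and TSPY4 from 5.27, 4.85 and 4.73 to 7.45 to 7.93 (median 7.50) and rose by 2.63 ± 0.13 (adjusted p = 1.95e-07). Of the 3 control arrays, 2 detected TSPY8 and 1 detected TSPY4. The copies are close in sequence, so probes may share transcripts. The probes for TSPY1 and TSPY3 did not pass, at 0.34 (adjusted p = 0.415) and -0.19 (adjusted p = 0.584). Both were dim, with control and mutant means of 5.05 and 5.39 for TSPY1 and 4.96 and 4.77 for TSPY3. TSPY1 was detected on 2 control and 4 mutant arrays, and TSPY3 on 1 control and 1 mutant array. Probes this dim cannot show whether transcripts are shared, which was not tested.

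X-linked VCX genes and the TRIM49 family fell. VCX, a basic nuclear protein of male germ cells, was at 8.67, 8.73 and 8.52 on control arrays and 6.69 to 7.08 (median 6.90) on mutant arrays, and fell by 1.75 ± 0.12 (adjusted p = 2.66e-06), its copy VCX3B fell by 1.72 ± 0.13 (adjusted p = 5.26e-06) and VCX3A fell by 1.66 ± 0.12 (adjusted p = 4.51e-06). A second, dimmer VCX3A probe, detected on 9 arrays, gave -0.36. TRIM51, a tripartite motif gene of chromosome 11, went from 8.90, 8.84 and 8.84 to 6.57 to 7.23 (median 6.87), and fell by 1.97 ± 0.11 (adjusted p = 4.49e-07). TRIM49C fell by 2.12 ± 0.11 (adjusted p = 3.34e-07), while a second, dim probe gave 0.01. TRIM49 was detected on 3 of 3 control and 0 of 6 mutant arrays, at 6.36 ± 0.09 and 4.60 ± 0.11, and was at least 2.52-fold lower (adjusted p = 1.08e-07). In all, 4 of 27 testis-restricted genes rose and 6 fell, a list median of -0.02, beside 5.59% of all genes that rose and 6.62% that fell.

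The Y chromosome stood out by its share of changed genes. Of 21 tested Y-linked genes 8 rose and 1 fell (42.9%), a list median of 0.28, while on the other chromosomes 6.04% to 15.7% of genes changed. Those that rose include TSPY2, TSPY4 and TSPY8, whose probes may share transcripts. The Y-linked share may therefore count a transcript more than once. RPS4Y1 and EIF1AY are given as examples chosen after their values were seen. RPS4Y1, a ribosomal protein gene expressed in all male tissues, was at 9.26, 9.42 and 9.18 on control arrays and 10.33 to 10.59 (median 10.48) on mutant arrays and rose by 1.19 ± 0.08 (adjusted p = 3.81e-06). EIF1AY, a translation initiation factor, rose by 1.03 ± 0.11 (adjusted p = 0.000125). The wild-type SPOP arrays lay with the mutants, with differences from control of 1.12 ± 0.10 (adjusted p = 2.67e-05) and 1.09 ± 0.13 (adjusted p = 0.00033). For the TSPY genes, too, the wild-type SPOP arrays were far above control, at 8.88, 9.09 and 8.87 for TSPY2.

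The remaining large rises include a translation factor and genes of secreted and surface proteins. EEF1A2, a translation elongation factor of neurons and muscle, was at 5.37, 5.17 and 5.35 on control arrays and 7.26 to 7.97 (median 7.66) on mutant arrays, a rise of 2.35 ± 0.13 (adjusted p = 4.56e-07). TSPAN7, a tetraspanin, went from 5.93, 6.11 and 6.15 to 7.66 to 8.09 (median 7.97) and rose by 1.87 ± 0.08 (adjusted p = 1.07e-07). SLPI, a secreted inhibitor of leukocyte proteases, went from 6.07, 5.98 and 6.12 to 7.05 to 7.90 (median 7.79) and rose by 1.53 ± 0.10 (adjusted p = 3.2e-06). In each of these genes every mutant array was above every control array, which the rule that chose them required.

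PLXDC2, TLL1 and CA1 started from below detection. PLXDC2, a transmembrane protein, was detected on 0 of 3 control arrays, at 4.77 ± 0.10, and on 6 of 6 mutant arrays, at 6.94 ± 0.16, and was at least 3.96-fold higher (adjusted p = 1.07e-07). A second, dim probe of PLXDC2, detected on 2 arrays, gave 0.32. TLL1, a secreted metalloprotease, was at 4.55 ± 0.09 and 6.69 ± 0.24 and at least 3.33-fold higher (adjusted p = 1.46e-06). CA1, a carbonic anhydrase, was at 4.54 ± 0.08 and 6.05 ± 0.52 and at least 2.13-fold higher (adjusted p = 6.18e-06). On the deposited processed values the differences of PLXDC2, TLL1 and CA1 were 0.54, 0.51 and 0.33, so the bounds hold only for the background correction used here. The spread of CA1 among the mutants was the widest of the 3, with 5.53 and 5.44 on the SPOP F102C arrays against 6.64 and 6.55 on the SPOP F133V arrays.

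TMEFF2, ADRA2A and MAP2 were among the 15 largest falls. TMEFF2, a transmembrane protein with follistatin domains that is abundant in prostate and brain, was at 8.84, 8.93 and 8.90 on control arrays and 5.18 to 6.17 (median 5.82) on mutant arrays, 8.88 times lower in the mutants, and fell by 3.15 ± 0.09 (adjusted p = 1.73e-09). ADRA2A, an adrenergic receptor, went from 7.71, 7.65 and 7.79 to 4.60 to 5.69 (median 5.51) and fell by 2.38 ± 0.12 (adjusted p = 2.37e-07). MAP2, a microtubule protein of neurons, fell by 1.75 ± 0.09 (adjusted p = 1.95e-07), with 3 dimmer probes at -1.99, -0.32 and -0.13.

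An elongation factor, a homeobox factor and a matrix protease also fell. AFF3, a subunit of elongation complexes, was at 8.28, 8.26 and 8.37 on control arrays and 5.69 to 6.46 (median 6.13) on mutant arrays, and fell by 2.21 ± 0.16 (adjusted p = 4.28e-06). MKX, a homeobox factor of tendon, went from 7.61, 7.46 and 7.35 to 4.74 to 5.72 (median 5.28) and fell by 2.21 ± 0.15 (adjusted p = 2.35e-06). MMP16, a membrane-type matrix metalloprotease, was detected on 1 of 6 mutant arrays, at 4.46 to 5.18 (median 4.70), against 6.69, 6.25 and 6.20 on control arrays, and fell by 1.63 ± 0.21 (adjusted p = 0.000522), a call lost with the detected-probe covariate (adjusted p = 0.285), with a second, dim probe at -0.42. VIM, the mesenchymal intermediate filament vimentin, fell by 1.13 ± 0.09 (adjusted p = 1.43e-05) from 9.06, 8.97 and 9.24 to 7.78 to 8.12 (median 7.97), with a dimmer probe at -2.67.

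The luminal prostate epithelium markers did not move one way. Of 19 measured 6 rose and 1 fell, beside 5.59% of all genes that rose and 6.62% that fell. The list median of 0.07 became -0.39 with equal medians of all probes, a scaling that put the median of all genes at -0.37. KRT19, a simple epithelial keratin, was at 5.66, 5.91 and 5.85 on control arrays and 6.82 to 7.54 (median 7.13) on mutant arrays, with no overlap, and rose by 1.39 ± 0.11 (adjusted p = 9.19e-06). SPDEF, an ETS factor of the prostate, rose by 0.76 ± 0.12 (adjusted p = 0.00167). The marker that fell was TMEFF2, whose change of -3.15 ± 0.09 was the largest on the list. The summed linear level of the list was 25230 to 26535 on control arrays and 25715 to 26649 on mutant arrays, ranges that overlap.

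Few markers of other cells passed the detection filter. On the basal list 3 of 10 genes with a probe were tested and 1 fell, VIM, and the summed level was 622 to 710 on control and 328 to 374 on mutant arrays, with 6 of the 10 detected on 0 arrays. That sum is mostly VIM, at 8.97 to 9.24 (log2) on control arrays, beside ITGA6 at 6.16 to 6.47 and DST at 4.63 to 4.98. On the neuroendocrine list 2 of 14 were tested and 1 rose, ENO2, an enolase that is also a glycolytic enzyme, by 0.96 ± 0.09 (adjusted p = 2.85e-05), with 9 of the 14 detected on 0 arrays and a summed level of 264 to 308 on control and 523 to 589 on mutant arrays. That sum is mostly ENO2, at 7.86 to 8.12 on control arrays, beside INSM1 at 4.86 to 4.95. Neither sum describes its list as a whole. Of the fibroblast markers 3 of 14 were tested and ACTA2 rose by 0.43 ± 0.09 (adjusted p = 0.0107), and of the immune markers 5 of 14 were tested, of which CD68 rose by 0.42 ± 0.10 (adjusted p = 0.0214; 2 other probes gave -0.03 and -0.15) and CD8A fell by 0.49 ± 0.12 (adjusted p = 0.0233). The summed level was 150 to 173 on control and 179 to 256 on mutant arrays for the fibroblast list, 9 of whose 14 were detected on 0 arrays, and 433 to 449 on control and 461 to 541 on mutant arrays for the immune list, with 6 of 14. A second probe of CD8A gave -0.26. The ACTA2 call was lost without control vector array 3 (adjusted p = 0.0564), the CD68 and CD8A calls in 4 and 3 of 12 fits without 1 array. The part of these few markers in other results was not tested.

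Transcripts of the SPOP pathway were mostly unmoved at this precision, beside 5.59% of all genes that rose and 6.62% that fell. Of 30 genes encoding reported SPOP substrates, whose proteins and not transcripts SPOP acts on, 1 rose and 1 fell, a list median of -0.06. HIPK2, a kinase that acts on p53, rose by 0.43 ± 0.10 (adjusted p = 0.0178; a second probe gave 0.03; call lost without control vector array 1 or 3) and GEMIN2, of the SMN complex, fell by 0.24 ± 0.07 (adjusted p = 0.0441; a second probe gave 0.01), whose call did not survive any of the 12 fits without 1 array. Of 26 genes of SPOP, CUL3 and other BTB adaptors 1 rose and 2 fell, a list median of -0.05. RHOBTB3, a gene of the BTB adaptor list, was at 7.15, 6.93 and 6.89 on control arrays and 5.60 to 6.44 (median 5.88) on mutant arrays and fell by 1.05 ± 0.16 (adjusted p = 0.00172). Of 27 proteasome subunits 0 passed the limma test, a list median of 0.01.

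Counts for the metabolic lists are given beside 5.59% of all genes that rose and 6.62% that fell. Differences between the lists were not tested. The share called in either direction was 6.67% for respiratory chain subunits and 5.71% for nucleolar genes, below the 12.2% of all genes. The hypoxia and glycolysis list had 4 of 36 genes higher and 0 lower (median 0.09), led by NDRG1 and ENO2. Of 29 cholesterol and fatty acid synthesis genes 5 rose and 3 fell, a list median of -0.02, among them the sterol reductase TM7SF2 at 0.54 ± 0.09 (adjusted p = 0.00252), the desaturase FADS2 at 0.38 ± 0.08 (adjusted p = 0.012) and the cholesterol synthesis enzyme HSD17B7 at -0.54 ± 0.11 (adjusted p = 0.0106). Of 11 metallothionein and zinc transport genes 2 rose and 0 fell, the metal-binding MT1F by 0.69 ± 0.08 (adjusted p = 0.000206) and the zinc importer SLC39A1 by 0.37 ± 0.09 (adjusted p = 0.0159). Of 45 respiratory chain subunits 1 rose and 2 fell, with cytochrome c, CYCS, at -0.40 ± 0.08 (adjusted p = 0.00662); NDUFC1 rose and NDUFS1 fell, calls lost in 10 and 9 of 12 fits without 1 array. Of 35 nucleolar genes 0 rose and 2 fell, POLR1E at -0.40 ± 0.10 (adjusted p = 0.0271; a second probe gave -0.04) and RRP12 at -0.31 ± 0.08 (adjusted p = 0.023). Among these, FADS2, HSD17B7, SLC39A1 and RRP12 each lost the call in 2 of 12 fits without 1 array, in each case control vector arrays, and POLR1E in 3.

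**Figure D3:**
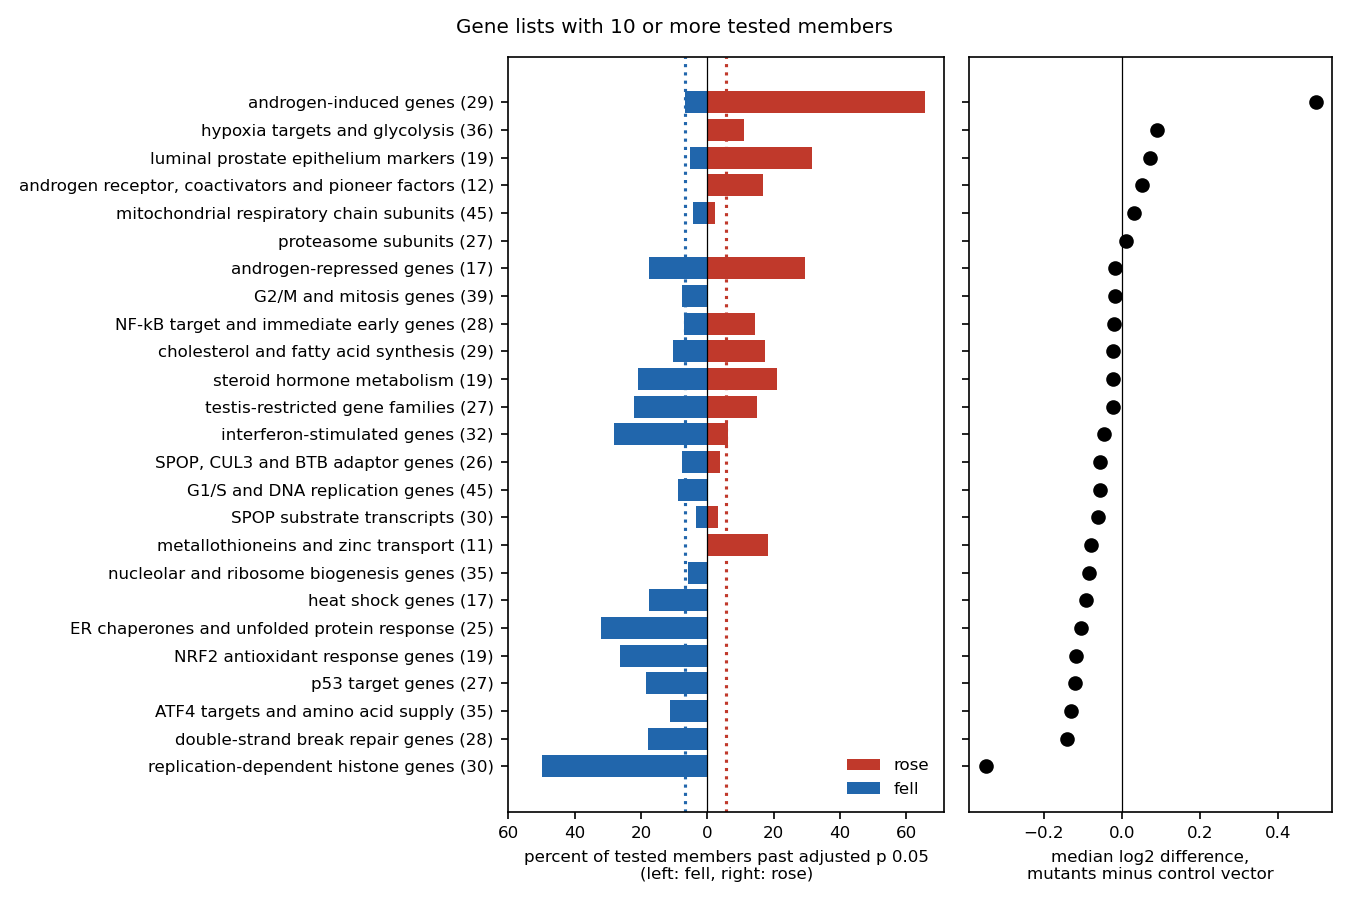
Gene lists with 10 or more tested members (number in brackets). The left panel gives the percent of members that rose (red, right) or fell (blue, left) at an adjusted p under 0.05, with dotted lines at 5.59% and 6.62% for all genes; the right panel gives each list's median log2 difference, from -0.35 for histone genes to 0.50 for androgen-induced genes.

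Detection calls, which follow signal size, are given as a description. Detected on 3 of 3 control and 0 of 6 mutant arrays were 45 genes, and OASL, AKR1C3, CCL20 and TRIM49 belong to them. With wild-type SPOP, 21 of the 45 were detected on 0 arrays, 17 on 1 or 2 and 7 on all 3. The genes were chosen by the difference itself, so passing the test adds nothing. The reverse held for 5 genes, PLXDC2, TLL1, CA1, RPSA2 and the chemokine receptor gene CCR9, the last 2 named after their values were seen. Fewer probes were detected on mutant arrays, and the part of this in the unequal counts of 45 and 5 was not tested.

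Each mutant was also set against the control vector alone, on 2 arrays against the same 3. SPOP F102C changed 470 genes (3.84%), SPOP F133V 1226 (10.0%) and SPOP F133L 855 (6.99%), at an adjusted p under 0.05. Without 1 of a mutant's own 2 arrays its count was 161 or 165, 429 or 1022, and 438 or 453 in that order, and with the detected-probe covariate the 3 counts were 253, 8 and 142. Wild-type SPOP changed 752 genes (6.15%). The comparisons share their control arrays, so their values are given side by side and not as repeated evidence.

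The F test among the mutants called 3 of 12227 genes (0.0245%), although 1443 (11.8%) had an unadjusted p under 0.05. THAP8, a zinc finger gene of the THAP family, was at 5.79 and 5.56 on the SPOP F133V arrays, above 4.69 and 4.56 with SPOP F102C, 4.56 and 4.56 with SPOP F133L and 4.98, 4.89 and 4.91 in controls (F test adjusted p = 0.0208). Its probe was detected on both SPOP F133V arrays, on 0 of 2 for each other mutant and on 1 of 3 control arrays, so the lower levels are not well above background. RGS2, a regulator of G-protein signalling, was at 8.68 and 8.68 with SPOP F133V, against 7.72 and 7.81 with SPOP F102C, 7.94 and 7.90 with SPOP F133L and 7.80, 7.76 and 7.71 in controls (adjusted p = 0.0208). DSE, a dermatan sulfate epimerase, was at 4.78 and 5.05 with SPOP F133V and 5.36 and 5.36 with SPOP F133L, while SPOP F102C, at 6.20 and 5.94, lay with the controls at 5.88, 5.98 and 6.18 (adjusted p = 0.0431). DSE was detected on 0 of 2 SPOP F133V arrays. These calls rest on 2 arrays per mutant, and with the detected-probe covariate 0 genes passed. In the fits without 1 array 0 to 36 genes passed, the most without SPOP F133V array 2.

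Some leading genes varied among the mutants without passing that test. SGK1 differed from control by 1.13 ± 0.11 in SPOP F102C, 1.76 ± 0.11 in SPOP F133V and 2.03 ± 0.11 in SPOP F133L (F test adjusted p = 0.0505), and SLPI by 1.01 ± 0.14, 1.83 ± 0.14 and 1.75 ± 0.14 in the same order (adjusted p = 0.0914). AKR1C2 differed by -2.15 ± 0.10, -2.04 ± 0.10 and -1.43 ± 0.10 (adjusted p = 0.0505), with SPOP F133L nearest to control. Of 30 leading genes 0 passed the F test, which does not show that the mutants act alike on them. The zinc finger gene ZNF286A and the endosomal gene RABEP2 were the next lowest in p, both at an adjusted p of 0.0505.

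**Figure D4:**
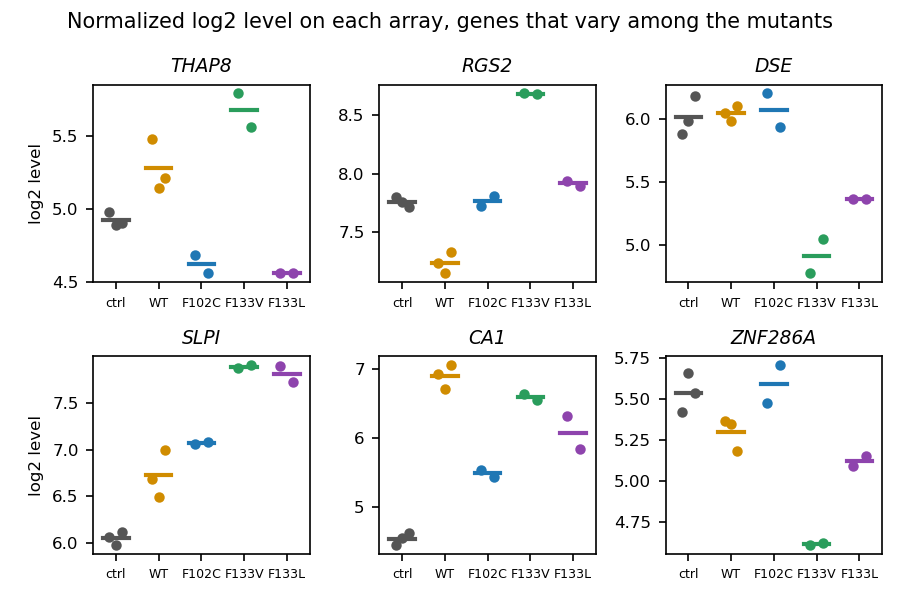
Normalized log2 levels (y axis, separate scale per panel) of 6 genes on each array, by group (x axis, with ctrl for control vector and WT for wild-type SPOP). Points are arrays and lines are group means. THAP8, RGS2, DSE and ZNF286A are from the 6 genes of lowest F test p, of which SGK1 and RABEP2 are not shown. SLPI and CA1 were added after their values were seen. THAP8 and RGS2 stand apart with SPOP F133V, while SPOP F102C lies with the control vector for DSE and ZNF286A and below the other mutants for SLPI and CA1.

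Whether the mutants differed from wild-type SPOP was tested directly, and 1437 genes (11.8%) did. Of the 15 largest rises 7 differed, 5 of them higher in the mutants, and of the 15 largest falls 7 differed, 4 of them lower. SLC26A3 was below control with wild-type SPOP, at 5.67, 5.33 and 5.46, and above control with the mutants, a difference of 2.24 ± 0.09 (adjusted p = 1.62e-07). SGK1 was at 6.70, 6.89 and 6.68 with wild-type SPOP and 1.86 higher with the mutants (adjusted p = 4.83e-07), KLK3 was 1.44 higher (adjusted p = 1.45e-05) and PGC 1.45 higher (adjusted p = 0.000102). CDKN1A was at 11.36, 11.63 and 11.61 with wild-type SPOP, and mutants minus wild-type SPOP was -1.02 ± 0.11 (adjusted p = 0.000256).

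For others the mutants and wild-type SPOP were close, and the test of their difference did not pass. TSPY2 differed between them by 0.20 ± 0.08 (adjusted p = 0.143), EEF1A2 by 0.26 ± 0.13 (adjusted p = 0.226), TSPAN7 by -0.13 ± 0.08 (adjusted p = 0.348), ADRA2A by -0.12 ± 0.12 (adjusted p = 0.551) and AFF3 by 0.33 ± 0.16 (adjusted p = 0.201). The VCX genes fell with both, less with the mutants, by 0.94 ± 0.12 for VCX (adjusted p = 0.000627) and 1.11 ± 0.13 for VCX3B (adjusted p = 0.000319). Seen by list, androgen-induced genes had medians of 0.50 with the mutants and -0.21 with wild-type SPOP, and histone genes -0.35 and 0.23, each against the same control arrays. A change that all SPOP lines share relative to the vector line cannot be told apart from a difference between the lines that is unrelated to SPOP.

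**Figure D5:**
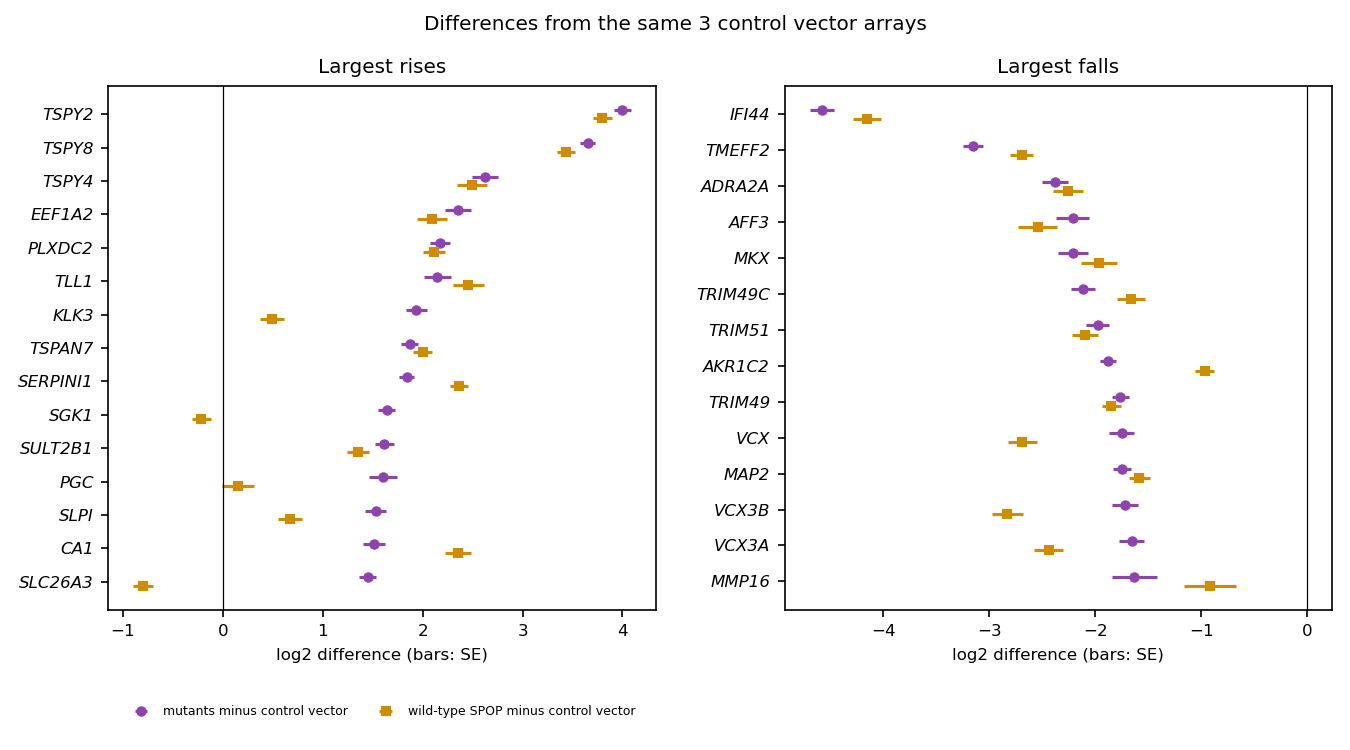
Log2 differences from the 3 control vector arrays (x axis; bars, SE) for the mutants (circles) and wild-type SPOP (squares), with the genes of the largest rises on the left and 14 of the largest falls on the right. PLXDC2, TLL1 and CA1 were detected on 0 control arrays, and TRIM49 on 0 mutant and 0 wild-type SPOP arrays. The plotted differences of these genes are therefore fitted values and no bounds. The 2 symbols lie close for TSPY2 and TSPAN7 and apart for SLC26A3, SGK1, KLK3 and PGC. They also lie close for TRIM49, where both values are below detection.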

How the data were processed

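RNA of 12 LNCaP-Abl cultures was hybridised to 1-colour Illumina bead arrays. The deposited table holds, per the file headers, each probe's intensity on a linear scale without normalization and its detection p-value against negative controls. A second deposited table holds log2 values made by the authors with lumi, per the submitters' processing notes, with no version given. The sources used here do not state its exact transformation, so it served only as an alternative. Each of its columns has a median of 7.53.

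Intensities were corrected and quantile normalized in limma 3.58.1 (R 4.3.3; neqc, offset 16, controls inferred from the detection p-values). Probes detected at p under 0.05 on at least 2 of 12 arrays were kept. Of 47323 probes 30113 have 1 symbol in the platform annotation, 8 several and 17202 none, and 30074 were found in the RefSeq gene table. Each gene was represented by its probe of highest mean, and 3325 genes have more than 1 kept probe. Means of the 5 groups were fitted on all 12 arrays with limma's eBayes, 7 residual degrees of freedom, and p-values were adjusted by Benjamini-Hochberg over 12227 genes. An adjusted p under 0.05 is a call. The fit was tested on simulated data. Few arrays per group limit the precision, and p-values measure only the spread between these arrays. The sources used here give no chip positions.

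Genes named are the 15 largest rises and falls without overlap between groups, the 3 largest in each direction per mutant, the 6 lowest F test p-values, SPOP and 6 androgen or p53 targets, and up to 4 genes of lowest p per list, plus those said to be chosen after their values were seen. The comparison, its members and all 29 lists (869 genes, 673 tested) were chosen with earlier results of these data known. 1 of the 15 largest falls is not reported here. Promoters are from RefSeq (GRCh38.p14). Alternatives covered background correction, normalization, filters, probe choice, the fit and leaving out each array.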

Additional observations from a re-analysis of the deposited data

Results flagged for a closer look

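Among the 111 genes named or shown, 6 had 1 mutant array far from the other 5 by Dixon's criterion for 6 samples, which chance gives for about 1 in 20 genes. TSPY4 was high on SPOP F133V array 2, at 7.93 against 7.45 to 7.61 on the others. HOXB13 was low on SPOP F133L array 1, at 8.64 against 9.04 to 9.22. RIF1 was low on SPOP F133V array 1, at 7.41 against 7.57 to 7.67. OASL was high on SPOP F133L array 1, at 4.87 against 4.36 to 4.52, and AKR1C3 on SPOP F133L array 2, at 4.997 against 4.50 to 4.65, both below detection. TAP1 was low on SPOP F133V array 2, at 7.84 against 8.15 to 8.24.

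The F test among the mutants marked 3 genes whose levels were not the same in the 3 mutants. THAP8 was at 5.79 and 5.56 on the SPOP F133V arrays and was not detected on the arrays of the other mutants (adjusted p = 0.0208). RGS2, detected on every array, differed from the control vector by 0.01 in SPOP F102C, 0.92 in SPOP F133V and 0.16 in SPOP F133L (adjusted p = 0.0208). DSE was at 6.20 and 5.94 with SPOP F102C and 5.36 and 5.36 with SPOP F133L, and was not detected with SPOP F133V (adjusted p = 0.0431).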

How the results depend on the processing

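With equal medians of all probes 6935 genes differed from the control vector in the pooled mutants, 1013 in SPOP F102C, 8057 in SPOP F133V and 3330 in SPOP F133L, 4617 between mutants and wild-type SPOP and 326 among the mutants. With equal medians of detected probes the pooled count was 3031, with 3216 for SPOP F133V, 1301 for SPOP F133L, 2204 against wild-type SPOP and 0 among the mutants. The detected-probe covariate left 107, 253, 8 and 142 for the pooled and single mutants, 343 for wild-type SPOP, 308 between mutants and wild-type SPOP and 0 among the mutants. SPOP F102C, SPOP F133L, wild-type SPOP and the F test gave 805, 1488, 1375 and 42 without background correction, 766, 1403, 1286 and 17 on the deposited values and 778, 1410, 1259 and 57 with trend and robust eBayes. Offset 50 gave 707 for SPOP F102C, 1143 for wild-type SPOP and 22 for the F test. The F test alone gave 23 with normexp, 7 with detection on all 12 arrays, 15 at detection p under 0.01 and 16 with the mean of probes. With the 9 arrays only, SPOP F102C gave 301 and the F test 0. Leaving out 1 array gave 870 to 1520 genes for the pooled mutants, 161 to 482, 429 to 1279 and 438 to 847 for the single mutants, 0 to 36 for the F test, 601 to 1437 between mutants and wild-type SPOP and 403 to 764 for wild-type SPOP.

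Replicate numbers did not pair the arrays, with correlations of same-numbered deviations from -0.03 to 0.03. With the replicate number as a block 920 genes passed for the pooled mutants, 249, 805 and 496 for the single mutants, 672 between mutants and wild-type SPOP and 0 for the F test.

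Of the same 111 genes, 42 were unchanged in call and sign with the detected-probe covariate, 68 lost the call and 1 reversed. The 30 largest changes were picked for size and separation in these same data, which favours their keeping the call. Of these 30, 29 kept call and sign with the covariate, and 30 did with equal medians of all probes. That scaling, which put the median of all genes at -0.37, reversed FKBP5 (-0.11), CDKN1A (-0.24), NCOA1 (-0.063), HIPK2 (-0.051), TAP1 (-0.078), NFKBIA (-0.084), SLC39A1 (-0.12), FADS2 (-0.094), NDUFC1 (-0.17), CD68 (-0.049), RGS2 (-0.12) and THAP8 (-0.10). THAP8 also turned with normexp (-0.031), without background correction (-0.014), on deposited values (-0.0046), with the covariate (-0.18) and without SPOP F133V array 1 (-0.011, the lowest of the fits without 1 array, the highest 0.066), and CDKN1A with the mean of probes (-0.013). The causes were not tested. A chip block was not run. Dim genes near the lowest signals, 82.4 to 92.1 per array, have compressed differences.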
